A study of Mus musculus with 14 samples.

Results

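The genes described here encode heterotrimeric G proteins, the adenylyl cyclases they control, the RGS proteins that switch them off, and the kinases and arrestins that silence the receptors above them. They were chosen by symbol among protein-coding genes: G protein alpha, beta and gamma subunits (Gna, Gnb and Gng), regulators of G protein signalling (Rgs), membrane adenylyl cyclases (Adcy), G protein-coupled receptor kinases (Grk) and the beta arrestins (Arrb). Of 29713 genes in the files, 70 matched these symbols and 48 had at least 140 counts summed over the 14 libraries. These 48 are 11 G alpha genes, 4 G beta genes, 6 G gamma genes, 7 adenylyl cyclases, 13 RGS genes and 7 genes of receptor kinases and arrestins. All 48 also passed the filter on low counts that preceded the tests. Rgs8 was the member nearest the minimum, with 166 summed counts, and Grk1 (124) and Adcy7 (89) were the nearest genes left out. Both values describe the choice and carry no test.

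A receptor that binds its ligand makes a G protein exchange GDP for GTP, after which the alpha subunit and the beta-gamma dimer part and act on their targets. Gs and its relative Golf (Gnas, Gnal) stimulate adenylyl cyclase, which makes cyclic AMP (cAMP), while Gi, Go and Gz (Gnai1, Gnai2, Gnai3, Gnao1, Gnaz) inhibit it, and Gq and G11 activate phospholipase C beta. RGS proteins speed up GTP hydrolysis by the alpha subunit and so end the signal. Receptor kinases phosphorylate active receptors, and arrestins then bind them and uncouple them from the G protein. Opioid receptors, the targets of the drugs used here, couple to Gi and Go.

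The RNA came from mouse neural stem cells (NSC) in culture, taken from the OG2 strain, in which a fluorescent reporter follows Pou5f1. In 12 libraries, all at passage 8, cells had been kept undifferentiated or differentiated for 2, 4 or 8 days, and each of these 4 stages was cultured with naloxone, with DAMGO or with a control that the labels name NC. Naloxone blocks opioid receptors, while DAMGO is an enkephalin-like peptide that activates the mu type. The other libraries were a passage 13 and a passage 8 NSC culture with no drug named. Drug concentrations, the length of exposure and the differentiation medium are not stated in the labels. Each condition was a single library, so nothing in the design separates a drug effect at 1 stage from the difference between 2 cultures. The p-values for stages take the 3 treatments of a stage as its libraries and measure only the spread between these libraries, which may be technical.

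Library totals ranged from 4143030 to 9070533 estimated counts. Marker genes were read against the stage labels. Mki67, a gene of dividing cells, averaged 0.183 TPM (transcript abundance per length, scaled to the same total in each library) on day 8 and 253 TPM in undifferentiated cells, and Gfap, the astrocyte filament gene, averaged 5899 TPM on day 8 and 1.81 TPM in undifferentiated cells. The summed level of 10 astrocyte markers was 13795 to 14559 TPM on day 8 and 713 to 739 TPM in undifferentiated cells, with 9 of the 10 called higher, and all 6 markers of dividing cells were called lower. Microglial markers summed to at most 1.61 TPM in any of the 12 libraries, with Cx3cr1 and C1qa at 0. Endothelial markers summed to 4.87 to 7.26 TPM on day 8 and 1.16 to 1.52 TPM in undifferentiated cells, with Cdh5 and Cldn5 at 0 and Kdr, the 1 marker tested, called higher. Pericyte and mesenchyme markers summed to 69.7 to 88.7 TPM on day 8 and 42.03 to 54.9 TPM in undifferentiated cells, and of 3 tested 2 were called higher and 1 lower. Oligodendrocyte markers summed to 315 to 352 TPM on day 8 and 84.4 to 88.4 TPM in undifferentiated cells, with 5 of 6 tested called higher. In the remaining lists the sum and the calls differed. Oligodendrocyte precursor markers summed to 1144 to 1244 TPM on day 8 and 2328 to 2491 TPM in undifferentiated cells, of which Olig1 alone averaged 693 TPM and 1667 TPM, while 4 of 7 tested were called higher and 3 lower. Gpr17 and Pdgfra of that list averaged 159 and 76 TPM on day 8, against 2.51 and 7.37 TPM in undifferentiated cells. Neuronal markers summed to 272 to 327 TPM on day 8 and 610 to 626 TPM in undifferentiated cells, of which Map2 averaged 133 TPM and 527 TPM, while 5 of 9 tested were called higher and 3 lower. Neural stem and progenitor markers summed to 8212 to 9281 TPM on day 8 and 10519 to 10957 TPM in undifferentiated cells, with 5 of 8 called higher and 3 lower. The part of such cell types in the results was not tested. In such bulk RNA, a lower value of a gene can mean fewer cells of a type or less RNA per cell, and these cannot be told apart. The day 2 NC library stood apart from the 2 drug libraries of its stage: 13.1% of all genes differed at least 2-fold between day 2 naloxone and day 2 NC cells, against 2.56% in undifferentiated cells. Changes between stages also moved with base composition, with a correlation across 13378 genes between GC content and the log2 change on day 8 of 0.342 (across genes, which are not independent replicates). Its part in the results was not tested beyond refitting the members with the trend on GC content and length removed, and those values are given where they end a call or turn a direction.

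The promoters of 4 alpha subunit and RGS genes that moved in opposite directions are shown, so that the sequence can be read beside the values that follow. Gnao1 and Rgs2 were called higher on day 8, and Gnai1 and Rgs7 lower. Each line holds the 250 bases before the RefSeq transcription start (GRCm38.p6), 5′ to 3′ on the gene's strand, with motif matches in capitals. The motifs searched on both strands were the full cAMP response element TGACGTCA, its shorter core TGACG (which lies within the full element), the GC box GGGCGG bound by Sp proteins, and the CCAAT box.
Gnao1, chr8:93810588-93810837, plus strand: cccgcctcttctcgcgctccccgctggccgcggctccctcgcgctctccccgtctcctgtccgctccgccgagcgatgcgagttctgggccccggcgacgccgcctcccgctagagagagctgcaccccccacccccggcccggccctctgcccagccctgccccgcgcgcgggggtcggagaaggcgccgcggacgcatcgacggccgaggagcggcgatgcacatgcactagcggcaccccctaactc
Rgs2, chr1:144004150-144004399, minus strand: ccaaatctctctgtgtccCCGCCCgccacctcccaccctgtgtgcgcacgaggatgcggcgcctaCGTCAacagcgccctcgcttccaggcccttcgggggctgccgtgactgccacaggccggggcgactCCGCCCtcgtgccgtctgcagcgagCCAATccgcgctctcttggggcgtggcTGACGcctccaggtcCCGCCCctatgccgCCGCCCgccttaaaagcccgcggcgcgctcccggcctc
Gnai1, chr5:18360414-18360663, minus strand: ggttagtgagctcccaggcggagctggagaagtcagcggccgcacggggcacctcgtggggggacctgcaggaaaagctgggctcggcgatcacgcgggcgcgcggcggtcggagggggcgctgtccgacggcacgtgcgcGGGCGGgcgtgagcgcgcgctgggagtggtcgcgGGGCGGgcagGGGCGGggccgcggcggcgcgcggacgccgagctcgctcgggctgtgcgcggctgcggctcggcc
Rgs7, chr1:175492546-175492795, minus strand: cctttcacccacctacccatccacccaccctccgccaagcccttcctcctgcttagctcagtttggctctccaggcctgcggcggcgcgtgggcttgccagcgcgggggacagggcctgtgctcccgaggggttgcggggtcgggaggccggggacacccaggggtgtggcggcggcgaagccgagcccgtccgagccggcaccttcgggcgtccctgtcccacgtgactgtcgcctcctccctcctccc
The 4 windows were rich in G and C, at 76.4% in Gnao1, 72.4% in Rgs2, 79.2% in Gnai1 and 72.4% in Rgs7. The Rgs2 window held 2 TGACG cores, 4 GC boxes and 1 CCAAT box, and the Gnai1 window held 3 GC boxes. No motif was found in the Gnao1 or Rgs7 window. The RefSeq promoter table matched 37 of the 48 members with 51 promoters, whose median GC content was 63.2%, against 52.4% over all 32536 promoters. The full cAMP element was in none of the 51 member promoters and in 1.56% of all promoters. The TGACG core occurred in 11 of the 51, belonging to 9 members (Adcy9, Gnas, Gnb1, Gng7, Grk4, Rgs12, Rgs2, Rgs4 and Rgs8) and in 17.9% of all promoters. GC boxes occurred in 30 of the 51, belonging to 26 members, and in 33.0% of all promoters. CCAAT boxes occurred in 15 of the 51, belonging to 11 members, and in 33.8% of all promoters. A match is a description of letters and not a binding site.

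On day 8, compared with undifferentiated cells, 41 of the 48 genes changed past the threshold (edgeR quasi-likelihood test, Benjamini-Hochberg adjusted p under 0.05 over 13413 genes), 22 higher and 19 lower. The background was similar: 79.8% of all genes tested were called, 41.5% higher and 38.3% lower. A change of at least 2-fold in a called gene was seen in 22 members, and 47.8% of all genes reached that size. Rgs4 and Rgs6, both among the members called higher, reached the count minimum only through day 8. The median change of the 48 genes was 0.27 on the log2 scale, against 0.048 for all genes. With the trend on GC content and length removed, the day 8 split was 16 higher and 21 lower, and the median of all genes was -0.082. The shares of all genes called by that fit, and by the other alternative fits below, are not given, so those splits stand without a background. With the trend kept, the share of members called was near the background. The results below concern which isoforms went up and which went down.

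Against undifferentiated cells, 36 genes were called on day 2 (20 higher and 16 lower). Of all genes 69.0% were called on day 2, 33.4% higher and 35.6% lower. On day 4 against undifferentiated cells, 31 genes were called (15 higher and 16 lower). Of all genes 61.8% were called on day 4, 31.1% higher and 30.7% lower. Without the day 2 NC library, 19 were called higher and 15 lower on day 2. Between neighbouring stages, 33 genes were called on day 4 against day 2 (13 higher and 20 lower). Of all genes 51.3% were called there, 26.8% higher and 24.5% lower. On day 8 against day 4, 35 genes were called (21 higher and 14 lower, beside 67.9% of all genes, 36.7% higher and 31.2% lower). Those last splits depend on scaling: with limma on log2(TPM + 1), they were 13 higher and 11 lower for day 4 against day 2, and 10 higher and 18 lower for day 8 against day 4, and without the GC and length trend the second was 13 higher and 14 lower. On the TPM scale the median of all genes moved by -0.16 on day 8 and 0.16 on day 4 against undifferentiated cells, by 0.20 on day 4 against day 2 and by -0.29 on day 8 against day 4. Mean CPM (counts per library total, scaled by TMM) was highest on day 8 in 22 genes, in undifferentiated cells in 15, on day 2 in 7 and on day 4 in 4. The same counts over all genes are not given, so they stand without a background. Rgs4, Rgs6 and Gng3 reached the count minimum only through day 8 and Rgs8 only through day 2. Their highest stage is thus in part fixed by the choice of members.

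**Figure D1:**
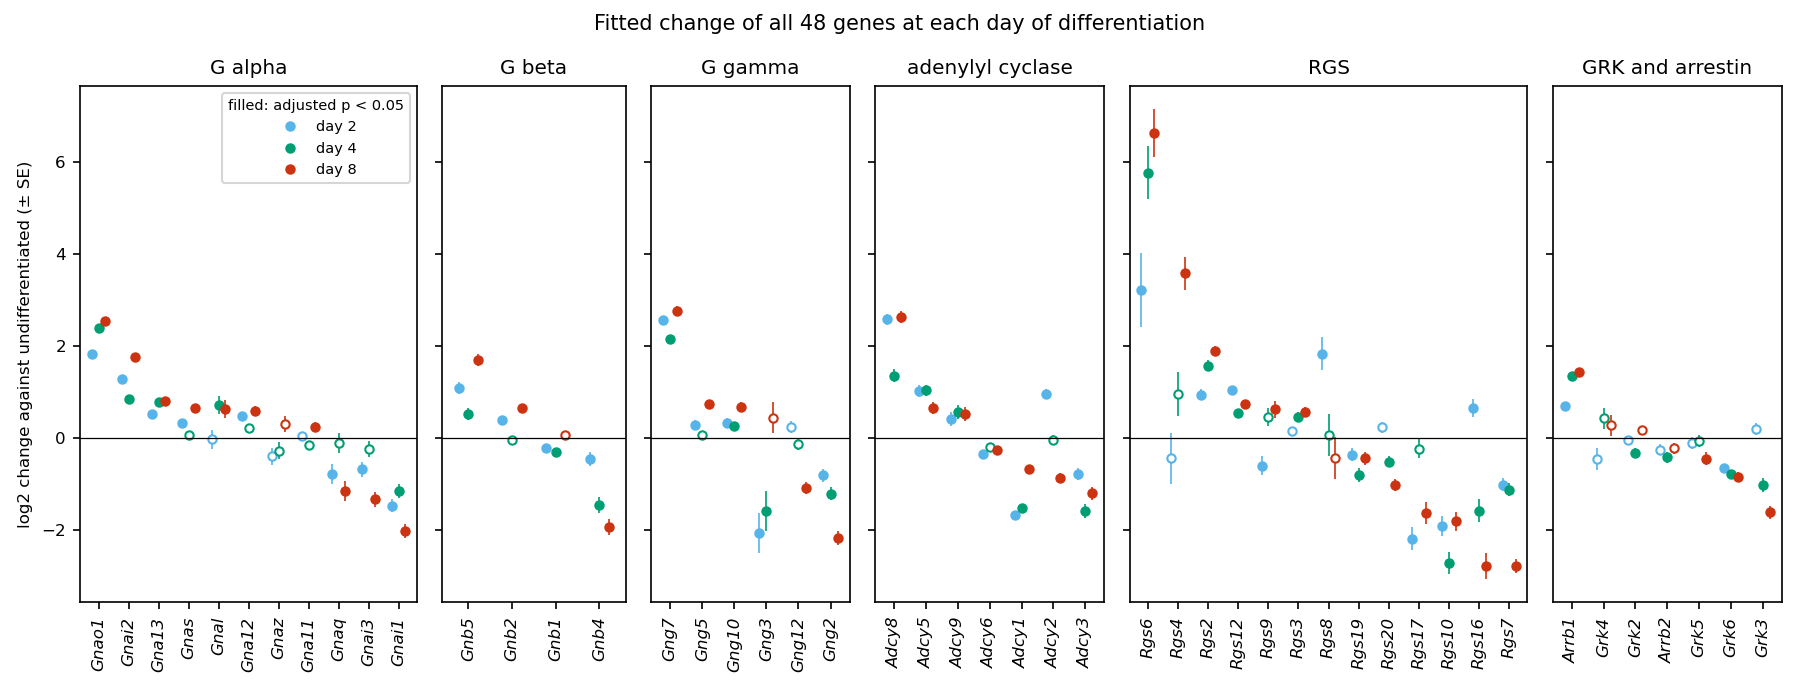
Fitted log2 change of each of the 48 genes on day 2, day 4 and day 8 against undifferentiated cells, in 6 panels by family; bars are SE and filled points have an adjusted p under 0.05. Within each family some genes lie above 0 and others below it on day 8, with Gng7 at 2.78 and Gng2 at -2.16 among the G gamma genes.

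Among the G alpha genes, 7 of 11 were called higher on day 8 and 3 lower, against 41.5% and 38.3% of all genes tested. The Gi and Go class changed its composition: Gnai2 and Gnao1 rose while Gnai1 and Gnai3 fell, the Gnai3 call being lost once a trend on GC content and length was removed. The summed level of the 11 genes was 3597 ± 164 TPM on day 8 and 2352 ± 70.8 TPM in undifferentiated cells (SD, n = 3 libraries each, as in all stage means below). The values of a trio below are for naloxone, DAMGO and NC cells in that order.

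Gnas (chr2:174284320-174346744, plus strand, GRCm38), the gene of Gs alpha, was the most abundant member throughout. It stood at 1373, 1379 and 1328 TPM in undifferentiated cells, 1670.2, 1702 and 1621 on day 2, 1588, 1655 and 1601 on day 4, and 1922, 1821 and 1760.2 on day 8. Every day 8 library lay above every undifferentiated library. The fitted change on day 8 was 0.67 ± 0.057 on the log2 scale (SE, adjusted p = 1.68e-06), but it turned to -0.11 with the trend on GC content and length removed. Its share of all G alpha TPM was 51 ± 0.849% on day 8 and 57.8 ± 0.632% in undifferentiated cells. Gnas also yields transcripts from several promoters, and the gene-level values here do not separate them.

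Gnai2 (chr9:107614125-107635367, minus strand) encodes a widely expressed inhibitory subunit. Its levels were 429, 466 and 382 TPM in undifferentiated cells, 1054, 999.9 and 915 on day 2, 867, 848 and 819.7 on day 4, and 1284, 1127 and 1175 on day 8. It had risen by day 2 in all 3 libraries and was higher again on day 8 than on day 4. The day 8 change was 1.76 ± 0.073 (adjusted p = 7.00e-09), a 3.39-fold increase, and 1.02 without the GC and length trend. Its share of G alpha TPM was 33.2 ± 0.936% on day 8 and 18.1 ± 1.26% in undifferentiated cells. No other G alpha gene gained as many percentage points.

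Gnao1 (chr8:93809966-93969388, plus strand), whose product Go is best known as the abundant G protein of brain, showed the largest rise among the alpha genes. It stood at 26.5, 35.4 and 25 TPM in undifferentiated cells, 89.8, 90.5 and 89.4 on day 2, 164, 155 and 152 on day 4, and 147, 123 and 121 on day 8. The 3 libraries of day 8 and the 3 of undifferentiated cells were far apart, and day 4 held the highest TPM. The change was 1.84 ± 0.088 on day 2, 2.40 ± 0.089 on day 4 and 2.55 ± 0.089 on day 8 (adjusted p = 1.94e-09 on day 8), a 5.87-fold increase. Between day 4 and day 8 it did not pass the threshold (0.15 ± 0.080, adjusted p = 0.116).

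Gnai1 (chr5:18265135-18360355, minus strand), another inhibitory alpha subunit, moved the opposite way. Its levels were 50.1, 44.8 and 49 TPM in undifferentiated cells, 14, 14.9 and 23.3 on day 2, 24.7, 24.6 and 25.4 on day 4, and 8.4, 11.6 and 11.2 on day 8. Undifferentiated libraries were all higher than any later one. It fell by 2.01 ± 0.15 on the log2 scale on day 8 (adjusted p = 6.34e-07), and by 1.46 on day 2. Without the GC and length trend the day 8 value was -0.90, still past the threshold (adjusted p = 5.18e-07).

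Gnai3 (chr3:108107280-108146146, minus strand), the third Gi gene, stood at 149, 144 and 153 TPM in undifferentiated cells, 76.7, 74.4 and 128 on day 2, 142, 151 and 142 on day 4, and 39, 62.3 and 54.1 on day 8. Its day 4 values overlapped those of undifferentiated cells, and its day 8 values all lay below them. The day 8 change was -1.33 ± 0.17 (adjusted p = 4.21e-05), but it shrank to -0.055 and lost its call (adjusted p = 0.585) once the GC and length trend was removed. On day 2 the value was -0.67 and turned to 0.30 by the same step.

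Of the other G alpha genes, Gnaq, an activator of phospholipase C beta, fell by 1.14 ± 0.22 on day 8 (adjusted p = 6.58e-04), with stage means of 64.7, 39.7, 69.3 and 27.4 TPM from undifferentiated cells to day 8, the order of all stage means below. Its partner in that class, Gna11, had means of 82.5, 83.5, 88.6 and 84.2 TPM and was called higher on day 8 by 0.26 ± 0.093, a value that turned to -0.30 without the GC and length trend. Its call was also lost without the undifferentiated naloxone library (0.18, adjusted p = 0.143), the day 8 NC library (0.21, adjusted p = 0.114) or the day 8 naloxone library (0.23, adjusted p = 0.0884). Gna13 rose by 0.80 ± 0.073 and Gna12 by 0.60 ± 0.096, and the Gna12 value came to 0.025 without the trend and lost its call. Gnal, the Golf gene, averaged 2.88, 2.71, 5.31 and 3.75 TPM and was called higher by 0.64 ± 0.20, a call lost without the undifferentiated NC library (0.51, adjusted p = 0.0561) or the day 8 naloxone library (0.49, adjusted p = 0.0638). Gnaz averaged 7.49, 4.89, 6.45 and 6.94 TPM, with a day 8 change of 0.32 ± 0.17 that did not pass (adjusted p = 0.105). Summed by class, Gi, Go and Gz genes took 38.8 ± 0.721% of G alpha TPM on day 8 and 28 ± 0.951% in undifferentiated cells. The Gs and Golf share was 51.1 ± 0.845% on day 8 and 58 ± 0.613% in undifferentiated cells. Gq and G11 took 3.1 ± 0.0688% on day 8 and 6.26 ± 0.257% in undifferentiated cells, and G12 and G13 took 7.02 ± 0.212% and 7.79 ± 0.268% in the same order. Shares were not tested, since an exact permutation test of 3 against 3 libraries cannot go below p = 0.10.

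**Figure D2:**
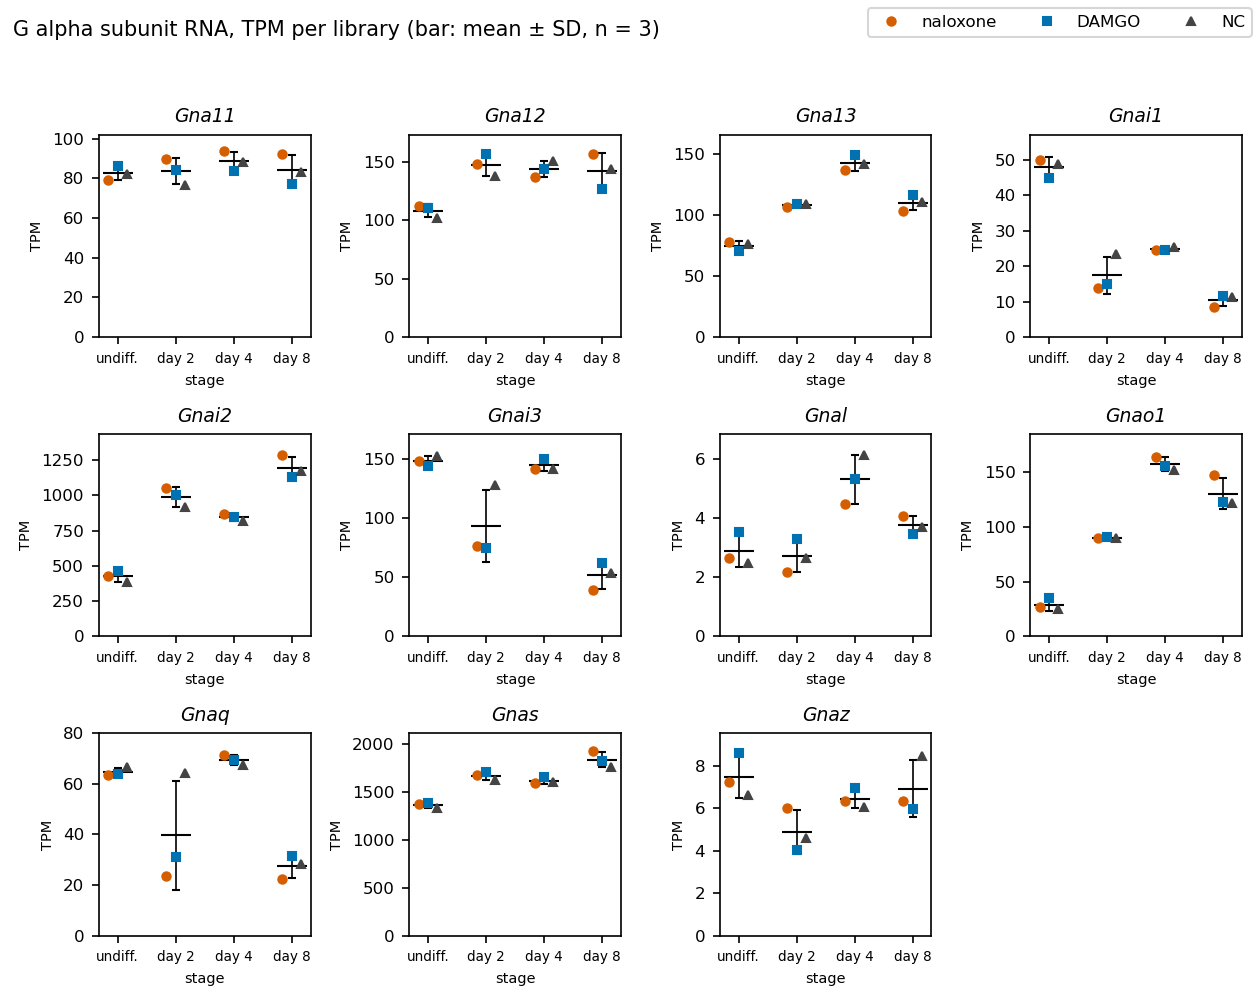
TPM of the 11 G alpha genes in each of the 12 libraries by stage, points for the libraries of each treatment and a dash with a bar for the mean and SD of a stage. Gnai2 (1196 TPM on day 8, 426 in undifferentiated cells) and Gnao1 (130.3 and 28.9) climb, while Gnai1 (10.4 and 48) and Gnai3 (51.8 and 149) are lowest on day 8.

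Beta and gamma subunits form a dimer that does not come apart in the cell. Of 4 beta genes 2 were called higher and 1 lower on day 8, and of 6 gamma genes 3 were called higher and 2 lower. Of all genes tested, 41.5% were called higher and 38.3% lower. The summed gamma level was 966 ± 96.8 TPM on day 8 and 912 ± 29.5 TPM in undifferentiated cells. In CPM it was lower on day 8, at 472 ± 44.6 against 542 ± 5.13 in undifferentiated cells.

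Gnb2 (chr5:137528127-137533510, minus strand), a widely expressed beta subunit, was the most abundant of the 4. It stood at 636, 643 and 671 TPM in undifferentiated cells, 805, 946 and 769 on day 2, 719.9, 672 and 564 on day 4, and 900.5, 751 and 787 on day 8. Day 8 libraries were above all undifferentiated ones and day 4 libraries were not. Its day 8 change was 0.66 ± 0.082 (adjusted p = 3.17e-05), and it turned to -0.24 without the GC and length trend. Gnb1, the other abundant beta gene, averaged 530.5, 407, 423 and 456 TPM over the stages, and its day 8 change of 0.067 ± 0.068 did not pass (adjusted p = 0.38).

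Gnb5 (chr9:75306288-75345876, plus strand) encodes an atypical beta subunit that binds RGS proteins of the R7 group (Rgs6, Rgs7, Rgs9 and Rgs11) rather than a gamma subunit. Its levels were 19.2, 13.6 and 20.4 TPM in undifferentiated cells, 34.7, 34.9 and 40.6 on day 2, 27.4, 24.9 and 34.8 on day 4, and 49.5, 47.2 and 50.7 on day 8. All later libraries exceeded the undifferentiated ones. It rose 3.25-fold by day 8 (1.70 ± 0.13, adjusted p = 6.30e-07), and by 0.88 without the GC and length trend.

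Gnb4 (chr3:32580332-32616585, minus strand) was lower at each later stage. Its values were 26.4, 31.4 and 30.9 TPM in undifferentiated cells, 19.8, 13.5 and 19.7 on day 2, 6.44, 8.72 and 13.1 on day 4, and 4.35, 6.41 and 4.63 on day 8. No day 8 library reached the lowest undifferentiated one. The day 8 change was -1.92 ± 0.17 (adjusted p = 2.31e-06). The day 2 change of -0.45 ± 0.15 passed (adjusted p = 0.0239) but lost its call without the undifferentiated NC library (-0.42, adjusted p = 0.0779), the undifferentiated naloxone library (-0.40, adjusted p = 0.0965) or the day 2 DAMGO library (-0.34, adjusted p = 0.115).

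Gng5 (chr3:146499807-146505572, plus strand), the most abundant gamma gene, stood at 499, 469 and 495 TPM in undifferentiated cells, 564, 606 and 559 on day 2, 571, 568 and 569.9 on day 4, and 611, 706 and 766 on day 8. Its day 8 libraries were above all undifferentiated ones. It rose by 0.75 ± 0.097 on day 8 (adjusted p = 4.05e-05) and held 71.8 ± 1.03% of gamma TPM on day 8 and 53.5 ± 1.37% in undifferentiated cells.

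Gng7 (chr10:80948624-81014945, minus strand) is known in striatum as the gamma subunit that pairs with Golf. It had 7.15, 5.79 and 5.31 TPM in undifferentiated cells, 31.3, 34.7 and 32.5 on day 2, 28.8, 27.9 and 28.3 on day 4, and 34.2, 33.1 and 32.4 on day 8. The rise was present by day 2 and in all 9 later libraries. Day 8 levels were 6.85-fold higher (2.78 ± 0.094, adjusted p = 1.59e-09), the largest rise among the beta and gamma genes.

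Gng2 (chr14:19872559-19977627, minus strand), a gamma subunit common in brain, fell in each stage against undifferentiated cells. Its levels were 127, 138 and 168 TPM in undifferentiated cells, 51.8, 61.6 and 82.3 on day 2, 38.8, 69.2 and 40.1 on day 4, and 15.9, 17.1 and 29.5 on day 8. Undifferentiated and later libraries did not overlap. It fell by 2.16 ± 0.15 on day 8 (adjusted p = 3.00e-07) and its share of gamma TPM was 2.12 ± 0.58% on day 8 and 15.8 ± 1.93% in undifferentiated cells. TPM is divided by the estimated transcript length, which for Gng2 was 2397 ± 713 bases on day 8 and 1741 ± 183 in undifferentiated cells. In CPM, which is not, Gng2 averaged 26.7 on day 8 and 117 in undifferentiated cells, and its day 4 libraries were at 48.9, 52.4 and 51.5.

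Gng12 (chr6:66896397-67021350, plus strand) fell later. It stood at 167, 171 and 180.1 TPM in undifferentiated cells, 202, 223 and 297 on day 2, 181, 163 and 197 on day 4, and 71.8, 79.5 and 86.4 on day 8. On day 2 and day 4 it did not pass the threshold against undifferentiated cells (0.25 ± 0.13 and -0.11 ± 0.13), and on day 8 it fell by 1.07 ± 0.13 (adjusted p = 2.33e-05). The remaining gamma genes were Gng10, which averaged 97.3, 119.9, 133 and 134 TPM and rose by 0.69 ± 0.097, and Gng3, a gamma subunit of neurons, which averaged 3.91, 0.877, 1.44 and 4.6 TPM. Gng3 had 15 counts in all on day 2 and 51 in undifferentiated cells, and its day 2 value was 0.236 of the undifferentiated one (95% counting interval 0.123 to 0.427). On day 8 it stood at 0.45 ± 0.34, which did not pass (adjusted p = 0.241).

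Adenylyl cyclase isoforms differ in what drives them besides Gs. Calcium and calmodulin stimulate Adcy1 and Adcy8, calcium and Gi inhibit Adcy5 and Adcy6, and beta-gamma dimers stimulate Adcy2. The summed cyclase level was 72.4 ± 5.29 TPM on day 8 and 93 ± 3.91 TPM in undifferentiated cells. On day 8 all 7 genes passed, 3 called higher and 4 lower. Of all genes tested 79.8% passed, 41.5% higher and 38.3% lower.

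Adcy8 (chr15:64697084-64922296, minus strand) rose most. It stood at 2.72, 3.32 and 2.63 TPM in undifferentiated cells, 17.8, 16.8 and 16.5 on day 2, 7.97, 8.53 and 9.01 on day 4, and 17.7, 15.1 and 14.3 on day 8. It was high on day 2, lower on day 4 and high again on day 8, and every later library exceeded the undifferentiated ones. The fitted changes were 2.59 ± 0.13 on day 2, 1.37 ± 0.13 on day 4 and 2.65 ± 0.13 on day 8 (adjusted p = 1.82e-08), and both the day 4 against day 2 change (-1.22 ± 0.11) and the day 8 against day 4 change (1.28 ± 0.11) passed. Its share of cyclase TPM was 21.7 ± 0.869% on day 8 and 3.11 ± 0.393% in undifferentiated cells.

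Adcy1, the other calmodulin-stimulated isoform, followed another course, with stage means of 24.2, 7.17, 8.65 and 11.9 TPM. It fell by 1.66 ± 0.091 on day 2 and by 0.67 ± 0.088 on day 8 (adjusted p = 4.28e-05). The day 8 against day 4 change was 0.85 ± 0.091 (adjusted p = 2.55e-05). Adcy1 held 26 ± 1.21% of cyclase TPM in undifferentiated cells, 7.19 ± 1.2% on day 2, 9.87 ± 0.444% on day 4 and 16.4 ± 0.576% on day 8.

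Adcy2 (chr13:68620043-68999541, minus strand) peaked on day 2. It had 16.9, 16.7 and 15.1 TPM in undifferentiated cells, 30.4, 30.2 and 33.1 on day 2, 17.8, 18.4 and 17.8 on day 4, and 7.03, 9.33 and 7.04 on day 8. All day 2 libraries were above, and all day 8 libraries below, those of the other stages. It rose by 0.98 ± 0.10 on day 2 (adjusted p = 1.36e-05) and stood 0.86 below undifferentiated cells on day 8 (log2 change -0.86 ± 0.11, adjusted p = 3.82e-05). On day 2 it held 31.3 ± 1.01% of cyclase TPM, the largest share of any isoform at that stage.

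Adcy5 (chr16:35154877-35305738, plus strand) was at 5.17, 5.79 and 5.15 TPM in undifferentiated cells, 11.2, 10.4 and 10.8 on day 2, 12, 13.7 and 12.6 on day 4, and 8.34, 6.18 and 7.52 on day 8. Its highest stage mean was on day 4, and day 8 libraries still exceeded the undifferentiated ones. It rose by 1.05 ± 0.12 on day 4 (adjusted p = 3.21e-05) and by 0.66 ± 0.12 on day 8 (adjusted p = 5.86e-04). The fall of 0.39 between day 4 and day 8 lost its call without the day 4 DAMGO library (-0.32, adjusted p = 0.0647) or without the day 8 DAMGO library (-0.25, adjusted p = 0.0539).

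Adcy6 (chr15:98589973-98610076, minus strand), the closest relative of Adcy5, was the most abundant cyclase in undifferentiated cells and on day 8. It stood at 30.5, 28.6 and 26.2 TPM in undifferentiated cells, 22.4, 22 and 21.4 on day 2, 28.6, 28.6 and 28 on day 4, and 22.4, 19 and 20.5 on day 8. Day 8 and undifferentiated libraries did not overlap in TPM. Its day 8 change of -0.26 ± 0.079 passed (adjusted p = 0.0117) but not without the day 8 DAMGO library (-0.19, adjusted p = 0.0589).

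Adcy3 (chr12:4133103-4213525, plus strand), the isoform of olfactory and neuronal cilia, stood at 11.5, 11.1 and 13.8 TPM in undifferentiated cells, 7.37, 6.13 and 5.76 on day 2, 5.24, 4.95 and 4.43 on day 4, and 4.44, 3.8 and 4.57 on day 8. Later libraries were all below the undifferentiated ones. It fell by 1.19 ± 0.14 on day 8 (adjusted p = 2.01e-05). An exon overlap with Cenpo on the other strand covers 22.1% of its exonic bases, and the kit does not mark strand, so reads there cannot be told apart. Adcy9 averaged 3.85, 5.01, 6.51 and 4.77 TPM and was called higher on day 8 by 0.53 ± 0.15, which came to 0.16 and was no longer called without the GC and length trend.

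**Figure D3:**
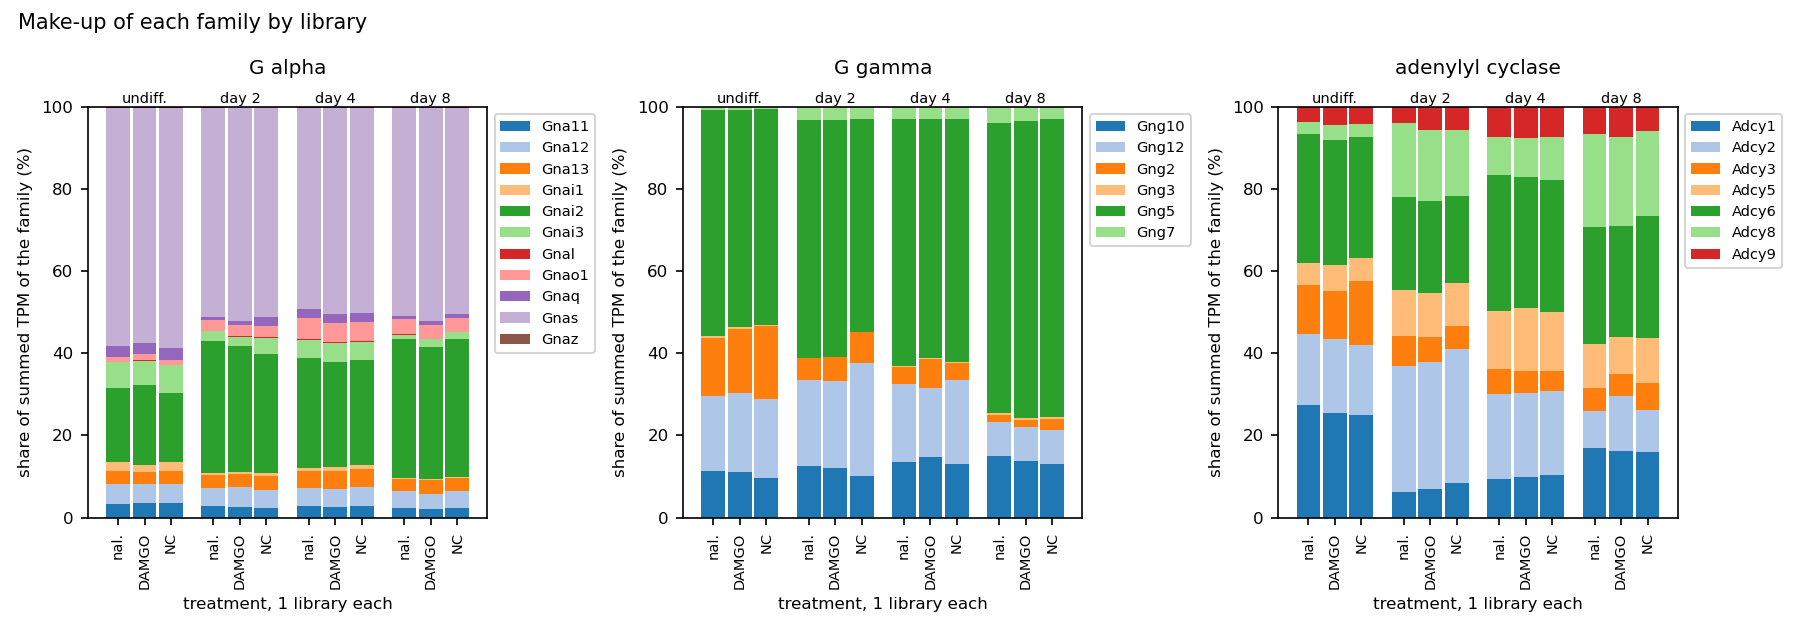
Stacked percent of summed TPM that each gene holds within the G alpha, G gamma and adenylyl cyclase families, 1 bar for each of the 12 libraries in stage order. The Gng2 band is 2.12% on day 8 and 15.8% in undifferentiated cells, and the Adcy8 band is 21.7% and 3.11% in the same order.

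Of the 13 RGS genes, 6 were called higher and 6 lower on day 8, a split near that of all genes tested (41.5% higher and 38.3% lower). The summed RGS level was 223 ± 16.4 TPM on day 8 and 304 ± 9.52 TPM in undifferentiated cells. In CPM the order was reversed, at 335 ± 17.9 on day 8 and 321 ± 8.19 in undifferentiated cells. Members of the R7 group, which work as complexes with Gnb5 on Gi and Go proteins, moved in both directions.

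Rgs7 (chr1:175059087-175492500, minus strand), an R7 gene, was the most abundant RGS gene in undifferentiated cells. It had 78, 81.4 and 86.3 TPM in undifferentiated cells, 42.8, 44 and 54 on day 2, 45.9, 43.7 and 45.8 on day 4, and 14.2, 13.9 and 13.4 on day 8. Between day 4 and day 8 its change was -1.66 ± 0.16, the largest fall among RGS genes in that comparison. It fell by 2.78 ± 0.16 on day 8 (adjusted p = 6.57e-08), and its share of RGS TPM was 6.21 ± 0.271% on day 8 and 27 ± 1.72% in undifferentiated cells.

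Rgs6, of the same group, had a single count in the 3 undifferentiated libraries together and 162 counts on day 8. Scaled to depth, day 8 was 136 times the undifferentiated value (95% counting interval 24.0 to 5393). Rgs6 reached the count minimum only through day 8, so this rise is in part fixed by the choice of members. Its day 8 libraries stood at 5.45, 4.61 and 3.68 TPM. Rgs9 averaged 5.64, 4.02, 9.4 and 7.9 TPM and was called higher on day 8 by 0.63 ± 0.19. That call was lost without the GC and length trend (0.12) and without the undifferentiated NC library (0.49, adjusted p = 0.0535). Rgs11, which stayed under the count minimum, averaged 0.393 TPM in undifferentiated cells, 0 on day 2, 0.183 on day 4 and 3.26 on day 8.

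Rgs3 (chr4:62559847-62704001, plus strand), of the R4 group of small RGS proteins, was the most abundant RGS gene on day 8. It stood at 50.8, 57.6 and 50.9 TPM in undifferentiated cells, 53.8, 51.6 and 54.4 on day 2, 84.9, 86.9 and 80 on day 4, and 75.8, 61.7 and 61 on day 8. Day 8 and undifferentiated libraries did not overlap in TPM. It was called higher on day 8 by 0.58 ± 0.097 (adjusted p = 2.69e-04), and its value turned to -0.14 without the GC and length trend.

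Rgs2 (chr1:143999338-144004161, minus strand), an R4 protein that prefers Gq alpha, rose. Its levels were 7.43, 10 and 10.3 TPM in undifferentiated cells, 15.6, 17.5 and 18.8 on day 2, 32, 33.9 and 38.3 on day 4, and 27.6, 33.6 and 25.4 on day 8. No later library overlapped the undifferentiated ones. It rose 3.74-fold by day 8 (1.90 ± 0.11, adjusted p = 1.00e-07), and by 2.62 without the trend.

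Rgs12 (chr5:34949445-35039644, plus strand) encodes a large RGS protein with a GoLoco motif that holds Gi alpha in its GDP form. It had 32.6, 40.3 and 34.9 TPM in undifferentiated cells, 61.2, 73.2 and 69.1 on day 2, 68.7, 59 and 55.2 on day 4, and 57.1, 45.6 and 44.3 on day 8. The day 2 libraries were among the highest, and all later libraries exceeded the undifferentiated ones. It rose by 1.06 ± 0.085 on day 2 (adjusted p = 1.96e-06) and by 0.75 ± 0.085 on day 8 (adjusted p = 1.46e-05).

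Rgs10 (chr7:128373621-128418758, minus strand), a small RGS protein of the R12 group also known from microglia, stood at 31.4, 36.7 and 32.9 TPM in undifferentiated cells, 10.6, 7.88 and 6.76 on day 2, 5.09, 10.04 and 4.58 on day 4, and 9.55, 7.65 and 7.67 on day 8. Every later library was below every undifferentiated one. It fell by 1.80 ± 0.21 on day 8 (adjusted p = 1.79e-05). These values rest on few counts, namely 33, 17 and 17 on day 2, 9, 11 and 9 on day 4 and 32, 19 and 18 on day 8. Microglial markers summed to at most 1.61 TPM in these libraries.

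Rgs16 (chr1:153740349-153745468, plus strand), an R4 gene, peaked on day 2. Its levels were 6.07, 5.89 and 3.94 TPM in undifferentiated cells, 8.16, 7.73 and 8.78 on day 2, 2.02, 1.87 and 2.17 on day 4, and 0.55, 0.66 and 0.84 on day 8. Low counts stand behind the later values, with 17 counts on day 8 and 100 in undifferentiated cells over 3 libraries each. It was called higher on day 2 by 0.66 ± 0.20 (adjusted p = 0.0128), a call lost without the undifferentiated NC library (0.44, adjusted p = 0.0837). On day 8 it fell by 2.77 ± 0.28 (adjusted p = 6.44e-06), and the day 8 value was 0.142 of the undifferentiated one (95% counting interval 0.0798 to 0.240).

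Rgs4, also of the R4 group, had 145 counts on day 8 and 10 in undifferentiated cells, a ratio of 12.1 after scaling (95% counting interval 6.42 to 25.9). Rgs8 had 82 counts on day 2 and 18 in undifferentiated cells, a ratio of 3.66 (2.18 to 6.48), and on day 8 its change of -0.42 ± 0.46 did not pass (adjusted p = 0.415). Rgs4 reached the count minimum only through day 8 and Rgs8 only through day 2, so these rises are in part fixed by that choice. The 3 genes of the RZ group, whose products act on Gz, were called lower on day 8. Rgs20 fell by 1.01 ± 0.12. Rgs17 was at -1.62 ± 0.24, and came to -0.0097 with no call without the GC and length trend. Rgs19 was at -0.43 ± 0.14 (adjusted p = 0.0181), a call lost without the undifferentiated DAMGO library (adjusted p = 0.0503), the day 8 naloxone library (adjusted p = 0.0502) or the day 8 DAMGO library (adjusted p = 0.0717), each value lying between -0.43 and -0.36. Stage means were 48.8, 53.2, 38.2 and 20.3 TPM for Rgs20, 26.2, 21.5, 17.6 and 17.7 TPM for Rgs19 and 2.36, 1.27, 1.66 and 0.82 TPM for Rgs17.

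**Figure D4:**
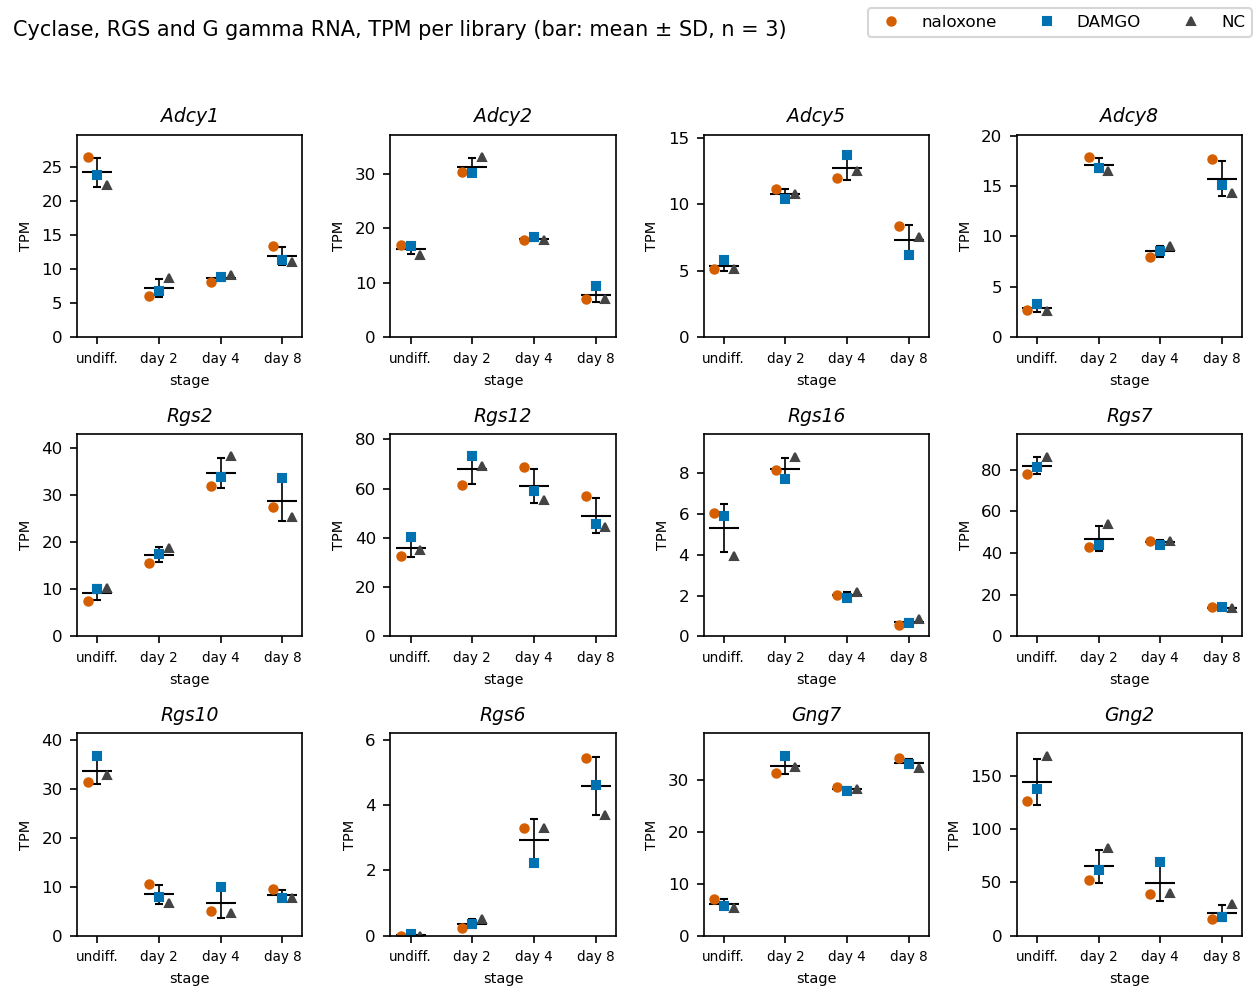
TPM of 12 cyclase, RGS and gamma subunit genes in each of the 12 libraries by stage, with the mean and SD of a stage. Adcy2, Rgs12 and Rgs16 have their highest mean on day 2 (31.2, 67.8 and 8.22 TPM), Adcy8 dips on day 4 (8.5 TPM), and Rgs7 is lowest on day 8 (13.8 TPM).

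Of the receptor kinases and arrestins, 1 of 7 genes was called higher on day 8 and 3 lower, against 41.5% and 38.3% of all genes tested. Grk2 and Grk3 are recruited to receptors by free beta-gamma dimers, while Grk4, Grk5 and Grk6 are held at the membrane by other means.

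Arrb1 (chr7:99535466-99606771, plus strand), the gene of beta arrestin 1, rose. It stood at 17.3, 15.4 and 19.9 TPM in undifferentiated cells, 25.1, 23.7 and 26.7 on day 2, 42.9, 45.6 and 43.2 on day 4, and 38, 35.3 and 37.7 on day 8. All later libraries exceeded the undifferentiated ones. The change was 1.45 ± 0.065 on day 8 (adjusted p = 1.27e-08), a 2.73-fold increase. Arrb2, the other beta arrestin gene, averaged 47.9, 35.3, 40.9 and 35.6 TPM, and its day 8 change of -0.22 ± 0.11 did not pass (adjusted p = 0.102).

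Grk2 (chr19:4286001-4306222, minus strand) was the most abundant kinase of the group in undifferentiated cells and on day 8. It had 70.5, 54.7 and 56.6 TPM in undifferentiated cells, 52.9, 52.7 and 91.9 on day 2, 59.1, 48 and 80.4 on day 4, and 62.7, 53.6 and 48 on day 8. Day 8 and undifferentiated libraries overlapped. Its day 8 change of 0.17 ± 0.090 did not pass (adjusted p = 0.0997), and it turned to -0.44 (adjusted p = 1.56e-04) without the GC and length trend and to -0.14 on log2(TPM + 1). In CPM, which takes no account of transcript length, the 3 day 2 libraries were at 88.2, 82.6 and 76, and the NC library, the highest in TPM, was the lowest.

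Grk3 (chr5:112910482-113015791, minus strand), the closest relative of Grk2, stood at 18.5, 18.2 and 19.4 TPM in undifferentiated cells, 19.3, 17.7 and 27.2 on day 2, 10.5, 9.69 and 11.7 on day 4, and 5.59, 5.92 and 4.33 on day 8. Day 4 and day 8 libraries were all below the undifferentiated and day 2 ones. It fell by 1.61 ± 0.15 on day 8 (adjusted p = 3.16e-06), and its day 2 change of 0.21 ± 0.14 did not pass (adjusted p = 0.199).

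Grk6 (chr13:55445072-55460927, plus strand) was at 53.1, 51.7 and 59.1 TPM in undifferentiated cells, 34.8, 35 and 32.2 on day 2, 38.7, 34 and 37.8 on day 4, and 28.6, 26.8 and 23.4 on day 8. It fell by 0.84 ± 0.10 on day 8 (adjusted p = 2.47e-05), and its value was -1.47 without the GC and length trend. Grk5 averaged 9.97, 9.09, 11 and 6.37 TPM and was called lower by 0.44 ± 0.13, a call lost without the undifferentiated NC library (-0.35, adjusted p = 0.0602). Grk4 averaged 5.63, 5.9, 7.99 and 5.74 TPM with a day 8 change of 0.28 ± 0.23 that did not pass (adjusted p = 0.268).

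Transcript choice within a gene shows in the mean transcript length that the authors' quantification gives per library. The length of Rgs7 was 1774 ± 377 bases on day 8 and 2296 ± 33.4 bases in undifferentiated cells. For Gng2 it was 2397 ± 713 bases on day 8 and 1741 ± 183 in undifferentiated cells, and for Gnb4 3329 ± 144 and 2583 ± 327 bases in the same order. Gnai2 kept a similar length, at 2111 ± 46.4 bases on day 8 and 2036 ± 52.1 bases in undifferentiated cells. These lengths were not tested, and at the lower counts of Rgs7, Gng2 and Gnb4 on day 8 they rest on few reads.

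Several members lie beside a relative that was hardly expressed. Gnai3 had 15397 counts over the 14 libraries, and Gnat2, a cone transducin gene 5847 bases away, had 11. Gna11 had 12316 counts and its neighbour Gna15, 4498 bases away, had none. Gnaq had 12378 counts and Gna14, 48298 bases away, had 27. Rgs4 had 201 counts and Rgs5, a pericyte marker 45663 bases away, had 20. Rgs8 and Rgs16, 40025 bases apart, had 166 and 466 counts, and both had their highest mean CPM on day 2. For Rgs8 that stage is in part fixed by the choice of members, since it reached the count minimum only through day 2. Of the 22 matching genes under the minimum, Gna15, Gnat3, Rgs1, Rgs18 and Rgs21 had no counts in any library. Exons on the opposite strand also overlap Gng3 (24.2% of its exonic bases, with Bscl2), Gna12 (13.3%, with Amz1), Gnas (13.1%, with Gm20721) and Rgs16 (10.1%, with Gm28513), and reads there cannot be assigned to a strand.

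The comparison of naloxone with NC over the 4 stages asks whether these genes differed with naloxone. Oprm1, the mu receptor gene, and Oprk1, another opioid receptor gene, had no counts in any of the 12 libraries. Whether a receptor for the drugs was active in these cells was not tested. None of the 48 passed the threshold (edgeR quasi-likelihood test, 0 of 13413 genes overall), the smallest adjusted p among them was 0.473, and limma-voom, limma on log2(TPM + 1) and DESeq2 gave 0 members as well. At an unadjusted p under 0.05 there were 6 members, namely Gng2, Gnai2, Grk2, Rgs19, Gnaq and Gng12, and 10% of all genes. Gng2 had the smallest p, with a change of -0.35 ± 0.12 (adjusted p = 0.473). Its naloxone minus NC differences in log2 CPM were -0.10, -0.62, -0.072 and -0.61 from undifferentiated cells to day 8. All 4 were below 0, and those of day 2 and day 8 were the larger. Gnai2, the most abundant Gi gene, was at 0.16 ± 0.062 (adjusted p = 0.473), with differences of 0.17, 0.28, 0.031 and 0.15. Grk2 was at 0.19 ± 0.078 (adjusted p = 0.473), with differences of -0.047, 0.21, 0.30 and 0.29. On log2(TPM + 1) the Grk2 value turned to -0.13, and on day 2 and day 4 Grk2 was lower with naloxone in TPM (52.9 and 59.2 TPM in naloxone cells, against 91.9 and 80.4 TPM in NC cells). The Gng2 and Gnai2 values are small beside their day 8 changes of -2.16 and 1.76. Gnaq stood at -0.45 ± 0.19, with differences of -0.068, -1.29, 0.054 and -0.44. Its value came mostly from day 2, where the NC library and the 2 drug libraries stood apart from each other. With the day 2 libraries left out, the Gnaq value was -0.14, that of Gng2 was -0.23, that of Gnai2 was 0.12 and that of Grk2 was 0.19. The log2 changes of this comparison also moved with GC content, with a correlation of 0.508 across 13378 genes and 0.444 across the 48 members, against 0.342 for day 8. Without the GC and length trend the naloxone values were -0.40 for Gng2, 0.060 for Gnai2, 0.12 for Grk2 and -0.33 for Gnaq.

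DAMGO against NC gave 0 of 48 members past the threshold (0 of 13413 genes, smallest adjusted p among the members 0.952, and 0 members by limma-voom, limma on log2(TPM + 1) and DESeq2). At an unadjusted p under 0.05 there was 1 member, and 2.42% of all genes. That gene was Gnb5, with a change of -0.29 ± 0.11 (adjusted p = 0.952) and DAMGO minus NC differences of -0.55, -0.13, -0.48 and -0.13 over the 4 stages. Arrb1 followed with 0.12 ± 0.056 (adjusted p = 0.952), and its differences were 0.14, 0.11, 0.13 and 0.10. In log2 CPM they were above 0 at every stage and small beside its day 8 rise of 1.45, but on log2(TPM + 1) the value turned to -0.13. Gnai2 was at 0.10 ± 0.062 (adjusted p = 0.952), with differences of 0.22, 0.22, 0.00072 and -0.034.

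Naloxone against DAMGO, the antagonist set against the agonist, gave 0 members past the threshold (0 of 13413 genes, smallest adjusted p among the members 0.9997, and 0 by the other 3 tools) and 0 at an unadjusted p under 0.05, where 1.83% of all genes stood. Grk4 had the smallest p, with a change of -0.42 ± 0.20 (adjusted p = 0.9997) and differences of -0.41, -0.47, -0.35 and -0.38 at the 4 stages. In log2 CPM all 4 were below 0. In TPM the direction differed between stages, with Grk4 at 7.03, 3.33, 9.99 and 5.87 TPM in naloxone cells, against 5.78, 9.85, 8.88 and 5.78 TPM in DAMGO cells. Gng2 was at -0.25 ± 0.12 and Rgs2 at -0.18 ± 0.094. The Rgs2 differences were -0.32, -0.042, -0.069 and -0.29. The naloxone and DAMGO comparisons share the NC libraries, and their values are given side by side without a count of shared direction.

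Whether a drug acted differently on differentiating than on undifferentiated cells was tested with an interaction term on 4 residual degrees of freedom. For naloxone 0 members passed (0 of 13413 genes), also by limma-voom, limma on log2(TPM + 1) and DESeq2, and at an unadjusted p under 0.05 there was 1, Rgs20, at -0.49 ± 0.21 (1.75% of all genes). For DAMGO 0 members passed by the same 4 tools, with 0 at an unadjusted p under 0.05 and 1.58% of all genes. A p that misses the threshold does not show that the drugs left these genes unchanged.

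Within a stage there is 1 library a condition and no test. Between naloxone and NC, the members that differed at least 2-fold in log2 CPM were Rgs8 in undifferentiated cells, Gnaq on day 2 and Gng3 on day 4, against 2.56%, 13.1% and 2.54% of all genes at those stages (4.32% on day 8, with no member). Between DAMGO and NC it was Gng3 on day 4, against 2.81% of all genes (2.69%, 10.2% and 2.39% at the other stages, with no member). Between naloxone and DAMGO it was Rgs4 on day 2, against 2.30% of all genes (2.67%, 2.89% and 3.18% at the other stages). On day 4, Gng3 had 9, 5 and 2 counts, and on day 2 Gnaq had 71.3, 92.6 and 175 CPM in naloxone, DAMGO and NC cells. Within day 2, Gnaq was thus higher in the NC library than in both drug libraries. It stood at 182, 183 and 191 CPM in undifferentiated cells and at 175, 173 and 168 CPM on day 4. With 1 library a condition, it cannot be told which of the day 2 libraries departed. The Gng3 values rest on 16 counts in all.

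**Figure D5:**
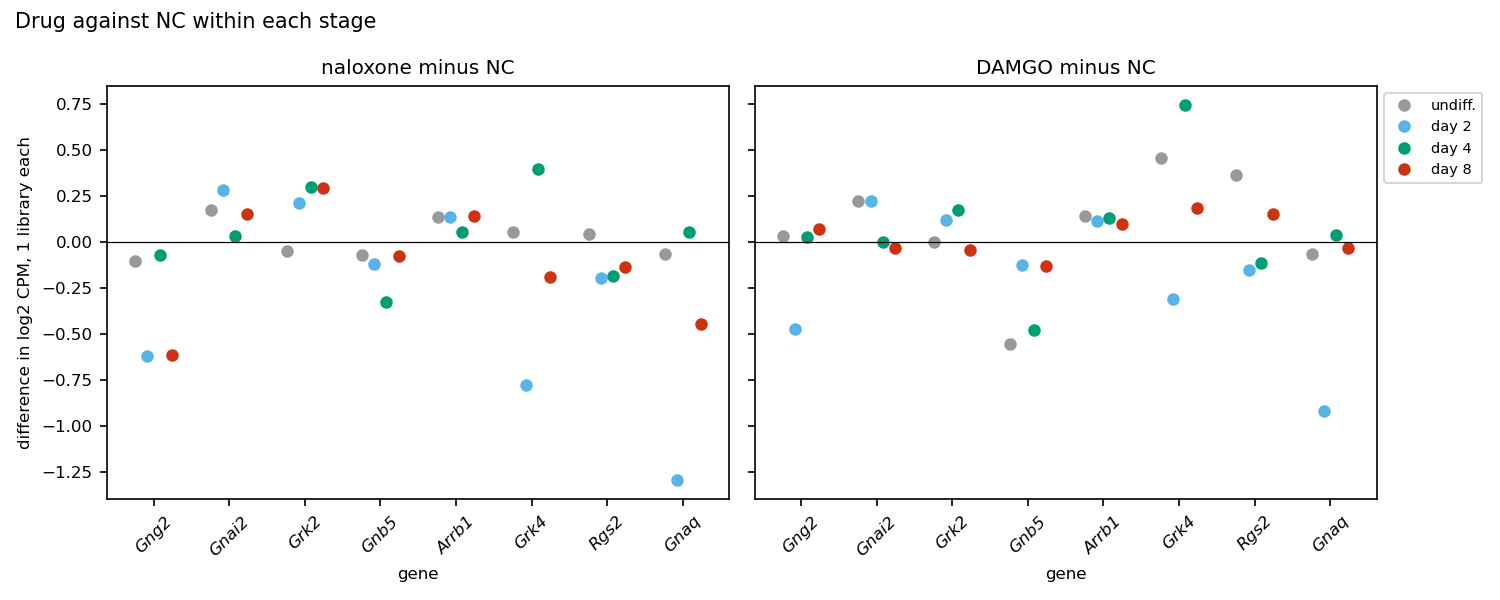
Difference in log2 CPM of naloxone or DAMGO cells minus NC cells at each of the 4 stages for 8 genes, 1 library a condition and so no error bar. Gnaq reaches -1.29 (naloxone) and -0.92 (DAMGO) on day 2, and most other differences lie within 0.5 of 0.

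The passage 13 and passage 8 cultures, with no drug named, differed little in these genes. Only Rgs4 differed at least 2-fold, with 6 counts at passage 13 and 12 at passage 8, a ratio of 0.414 (95% counting interval 0.128 to 1.19), and 3.22% of all genes differed that much. The median absolute difference was 0.12 on the log2 scale over the 48 genes and 0.15 over all genes, and 42 of 48 were within 0.5. Gnai2 was at 479 TPM at passage 13 and 371 TPM at passage 8, a CPM ratio of 1.25 (95% counting interval 1.19 to 1.32). Gnai1 went the other way, at 40.3 TPM at passage 13 and 52.8 TPM at passage 8, a ratio of 0.743 (95% counting interval 0.655 to 0.843). Adcy2 had a ratio of 1.49 (95% counting interval 1.24 to 1.8) and Rgs16 of 0.556 (95% counting interval 0.379 to 0.81). With 1 library each, these intervals cover counting error only and there is no replicate check.

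Genes upstream and downstream of the G proteins were read from lists of pathway genes, described by counts beside the 41.5% of all genes called higher and 38.3% called lower on day 8. Unlike those of the members, their values are not given with the trend on GC content and length removed. Of 25 listed receptors that couple mainly to Gi, 12 were called higher, 2 were called lower and 9 had too few counts to test. Some of the 12 passed the count filter only through the later stages, where they are high, so their number is in part fixed by the filter. Adra2a, an adrenergic receptor gene of astrocytes and neurons, averaged 57.9 ± 7.004 CPM on day 8 and 0.367 ± 0.175 CPM in undifferentiated cells, a change of 7.23 ± 0.23. Sstr1, a somatostatin receptor gene, and Adra2c had no counts in undifferentiated cells and were at least 12.9-fold and at least 9.59-fold higher on day 8, with the undifferentiated group set at a floor of 3 counts in all. Oprm1, the mu opioid receptor gene that DAMGO targets, was listed at 0 in all 12 libraries, as were Oprk1 and Htr1a.

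Receptors coupled mainly to Gs gave 5 testable genes of 20, 3 called higher and 2 lower. Vipr2 averaged 1.39 CPM in undifferentiated cells and 13.9 CPM on day 8. It may thus have passed the count filter only through the later stages, and the number called higher may be in part fixed by the filter. Adora2b, an adenosine receptor gene, changed by 4.09 ± 0.21, Vipr2 by 3.29 ± 0.31 and Adcyap1r1, which binds the peptide PACAP, by 2.02 ± 0.063. Of 20 receptors coupled mainly to Gq, 12 were testable, 4 called higher and 6 lower, with a median of -0.097. Grm5, a glutamate receptor gene, changed by -5.05 ± 0.33, Chrm3, a muscarinic receptor gene, by -4.72 ± 0.20 and P2ry2, a nucleotide receptor gene, by 3.90 ± 0.54.

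Downstream of the cyclases, cAMP phosphodiesterases were mostly lower on day 8, with 2 of 14 tested called higher, 10 lower and a median of -1.41. Pde3b changed by -3.68 ± 0.22, Pde7b by -3.21 ± 0.26 and Pde11a by -2.97 ± 0.74, while Pde4a, which encodes a cAMP-specific enzyme, changed by 2.68 ± 0.21 and Pde1b, a calmodulin-dependent one, by 1.06 ± 0.11. The Pde11a value rests on low levels, 0.183 CPM on day 8 and 1.37 CPM in undifferentiated cells. Subunits and inhibitors of protein kinase A, the main cAMP effector, gave 2 of 9 called higher and 4 lower, with a median of -0.076. Prkar1b, a regulatory subunit gene of brain, changed by 2.19 ± 0.20, Prkar2a by -1.46 ± 0.094 and the inhibitor gene Pkib by -1.70 ± 0.30. Among other cAMP effectors and targets 3 of 8 were called higher and 4 lower. Creb1, the transcription factor that binds the cAMP element, changed by -3.27 ± 0.39, and its coactivator genes Crtc1 and Crtc3 by 1.28 ± 0.080 and 1.45 ± 0.095. These values describe genes read from the same fit and were not tested as sets.

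On the Gq side, the phospholipase C beta gene Plcb4 changed by -3.17 ± 0.48 and Plcb1 by -1.09 ± 0.38. Plcb3, of the same family, did not pass the threshold (-0.077 ± 0.071). Of 7 tested chaperones and non-receptor regulators, 2 were called higher and 4 lower. Rgs7bp, whose product anchors R7 RGS complexes at the membrane, changed by -4.50 ± 0.41, which stands beside the fall of Rgs7 and the rise of Gnb5 and Rgs6. Ppp1r1b, the gene of the phosphatase inhibitor DARPP-32, changed by 3.78 ± 0.29, and Gpsm2, which binds Gi alpha in its GDP form during spindle orientation, by -1.31 ± 0.081. No gene of the pathway lists was called for naloxone against NC, DAMGO against NC or naloxone against DAMGO.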

How the data were processed

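RNA-seq of 14 mouse libraries was read from the deposited tables. Libraries were made with a TruSeq RNA kit from Trizol-extracted total RNA, and per the submitters' processing notes reads were processed with Bowtie and RSEM on mm10; their versions and annotation are not stated. Per the file headers, the authors deposited an expected count, a TPM, an FPKM and a transcript length per gene. Expected counts, RSEM estimates in which reads shared by related genes are divided, were rounded to whole numbers; FPKM was not used. Gene positions and types came from GENCODE M21 (29202 of 29713 IDs matched) and promoters from RefSeq. The unstranded kit leaves overlapping genes on opposite strands unresolved.

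The tests were edgeR 4.0.16 quasi-likelihood tests (R 4.3.3) with TMM scaling and filterByExpr (13413 genes), on an additive model of stage and treatment with 6 residual degrees of freedom, and Benjamini-Hochberg adjustment at 0.05. Single-library comparisons used log2 CPM with a prior count of 2 and a 2-fold limit, and no test. Intervals and floors (3 counts) cover counting error only. In each family, the genes given in full had the highest mean TPM in undifferentiated or day 8 cells, the 2 largest called rises or falls on day 8 with a mean of at least 5 CPM, or a called peak on day 2 or day 4; for each drug comparison they were the 3 with the smallest p. Genes at the low end of counts (Rgs4, Rgs6, Rgs8, Gng3) and Gnaq were singled out after their values were seen. Members and lists were chosen with earlier results of these data known. Alternatives were DESeq2 1.42.0 and its size factors, limma 3.58.1 (voom, and log2(TPM + 1)), no filter, a minimum change of 2-fold, a GC and length trend removed with mgcv 1.9.3, the passage 8 reference added as NC, differentiating libraries alone, each library left out, and, added after seeing the data, the day 2 libraries left out. The code was tested on simulated data.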

Additional observations from a re-analysis of the deposited data

How the results depend on the processing

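No paired analysis was possible because each condition is 1 library and the labels carry no replicate numbers. Of the called members, 28 of 41 on day 8, 24 of 36 on day 2 and 27 of 31 on day 4 (against undifferentiated cells), 12 of 33 on day 4 against day 2 and 13 of 35 on day 8 against day 4 kept their call and direction under every alternative other than a minimum change of 2-fold. That minimum left 6 higher and 5 lower on day 2, 6 and 5 on day 4, 9 and 9 on day 8, 2 and 1 for day 4 against day 2, and 3 and 1 for day 8 against day 4. For day 4 against day 2, 8 members were higher without the GC and length trend and 11 lower with limma on log2(TPM + 1). For day 8 against day 4, 13 were higher without the trend and 10 with limma on log2(TPM + 1). On TPM with a pseudocount of 1, 2 members passed 2-fold within a stage for DAMGO against NC, and 0 for passage 13 against passage 8. With each library left out in turn, members called higher and lower numbered 17 to 20 and 13 to 16 on day 2, 13 to 18 and 14 to 17 on day 4, 20 to 23 and 17 to 19 on day 8, 8 to 13 and 15 to 21 for day 4 against day 2, and 17 to 20 and 11 to 14 for day 8 against day 4; the 8 higher genes for day 4 against day 2 came without the day 4 naloxone library and without the day 4 DAMGO library. The 3 drug comparisons stayed at 0 to 0; the interactions were not refitted with libraries left out. With the day 2 libraries left out, 18 were higher and 16 lower on day 4, and 22 and 19 on day 8. The shares of all genes called under these alternatives are not given. Where the change was called in either fit, directions that turned without the GC and length trend, as log2 values, were on day 2 Gna11 (-0.23), Gnai3 (0.30), Gnas (-0.0096) and Gnb2 (-0.064); on day 8 Gna11 (-0.30), Gnas (-0.11), Gnb2 (-0.24), Grk2 (-0.44) and Rgs3 (-0.14); for day 4 against day 2 Adcy1 (-0.32), Gnai1 (-0.36) and Gnai3 (-0.35); and for day 8 against day 4 Arrb2 (-0.57), Gnai1 (0.085), Gnai3 (0.0038), Gnao1 (-0.33), Gnas (-0.093), Gnb2 (-0.13), Grk4 (0.49), Rgs17 (0.064), Rgs19 (-0.47) and Rgs3 (-0.46). On log2(TPM + 1), Gnb1 turned on day 8 (-0.22), Grk2 on day 4 (0.021), and, for day 8 against day 4, Adcy3 (-0.16), Gna11 (-0.076), Gna12 (-0.020), Gna13 (-0.37), Grk2 (-0.16), Rgs12 (-0.31), Rgs2 (-0.26) and Rgs3 (-0.34). Of drug values that were not called, those of Grk2 for naloxone against NC (-0.13) and Arrb1 for DAMGO against NC (-0.13) also turned there. TPM is divided by the estimated transcript length, while CPM is not. For Grk2 that length was 2385, 3201, 2910 and 3084 bases in naloxone cells by stage, against 3030, 1790, 1816 and 3190 in NC cells. For Arrb1 it was 7038, 7108, 7068 and 7118 bases in DAMGO cells, against 5021, 6275, 6805 and 6184 in NC cells. The cause of each turn was not tested. Genes under 100 counts in a stage (Gng3, Grk4, Rgs4, Rgs6, Rgs8, Rgs9, Rgs10, Rgs16, Rgs17) are limited by depth.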
